A study of Mus musculus with 8 samples.

Results

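The mitosis genes are 30 genes whose products carry a cell from entry into mitosis to its exit and were chosen by name. They were looked up in a mouse liver experiment on 8 one-colour Agilent arrays, in which 20738 named genes were tested. A named feature (spot) was found for 29 of the 30; Ccnb1, cyclin B1, is unnamed here and has no value. The RNA came from livers of male mice of the outbred CD-1 stock. The control group had 4 samples from mice fed for 7 days on diet without the compound (0 ppm), and the NaPB group had 4 samples from mice fed for 7 days on diet to which NaPB (sodium phenobarbital) had been added at 2500 ppm. No ages, transgenes or other agents are given for either group. Nothing in the labels says whether each sample is a separate animal, and the spread that p-values rest on may therefore be technical.

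Most hepatocytes of an adult liver are not dividing, and transcripts of mitosis genes are scarce there. These genes are switched on together late in the cell cycle, through the MuvB complex, B-Myb and Foxm1, and are held down in resting cells by the related DREAM complex. Their products build the spindle, attach chromosomes to it, hold back anaphase until all are attached, and then mark cyclins and securin for destruction by the anaphase-promoting complex. Phenobarbital activates the nuclear receptor CAR in hepatocytes, and in mice it is known for liver enlargement with an early, passing wave of hepatocyte division. The series title names both a hypertrophic and a hyperplastic response to this compound, and transcripts of dividing cells bear on the second.

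None of the 29 measured mitosis genes differed between the diets at an adjusted p below 0.05 (limma, Benjamini-Hochberg adjustment over all 20738 genes). Over all genes 81 were called higher on NaPB (0.391%) and 128 lower (0.617%). At an unadjusted p below 0.05, 6 members were higher, namely Ube2c, Cdc20, Tpx2, Plk1, Aurka and Ccnb2, and 0 were lower, beside 4.34% and 5.77% of all genes. The log2 fold change, NaPB over control, was above 0 for 21 members and below 0 for 8, with a median of 0.37 and a highest value of 2.00. These counts take every value as measured, although 5 members (Melk, Kif23, Top2a, Aurka and Aurkb) had 4 or more arrays at the floor, meaning at most 2 times the lowest value of their array, where values have no order. Over all genes the median was 0.01, and 51.2% of genes were above 0. The member median was 0.12 without control replicate 1 and 0.10 without both control replicate 1 and NaPB replicate 4, with 16 of 29 members then above 0 in both cases. In whole liver, a change in the number of dividing cells and a change of transcript per cell cannot be told apart.

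Members were also compared by whether the diets' values overlapped. For 3 members (10.3%), Ube2c, Cdc20 and Tpx2, all NaPB values lay above all control values, which held for 2.72% of all genes. For no member did all NaPB values lie below all control values, a pattern seen in 4.31% of all genes. The spread within a diet was wide: the median within-diet standard deviation of members was 0.69 log2 units, against 0.49 over all genes. Of the members, 18 differed between the diets by less than 1.5-fold in either direction. This count takes floor values as measured and includes Melk, Top2a and Aurkb, named above for values at the floor.

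**Figure D1:**
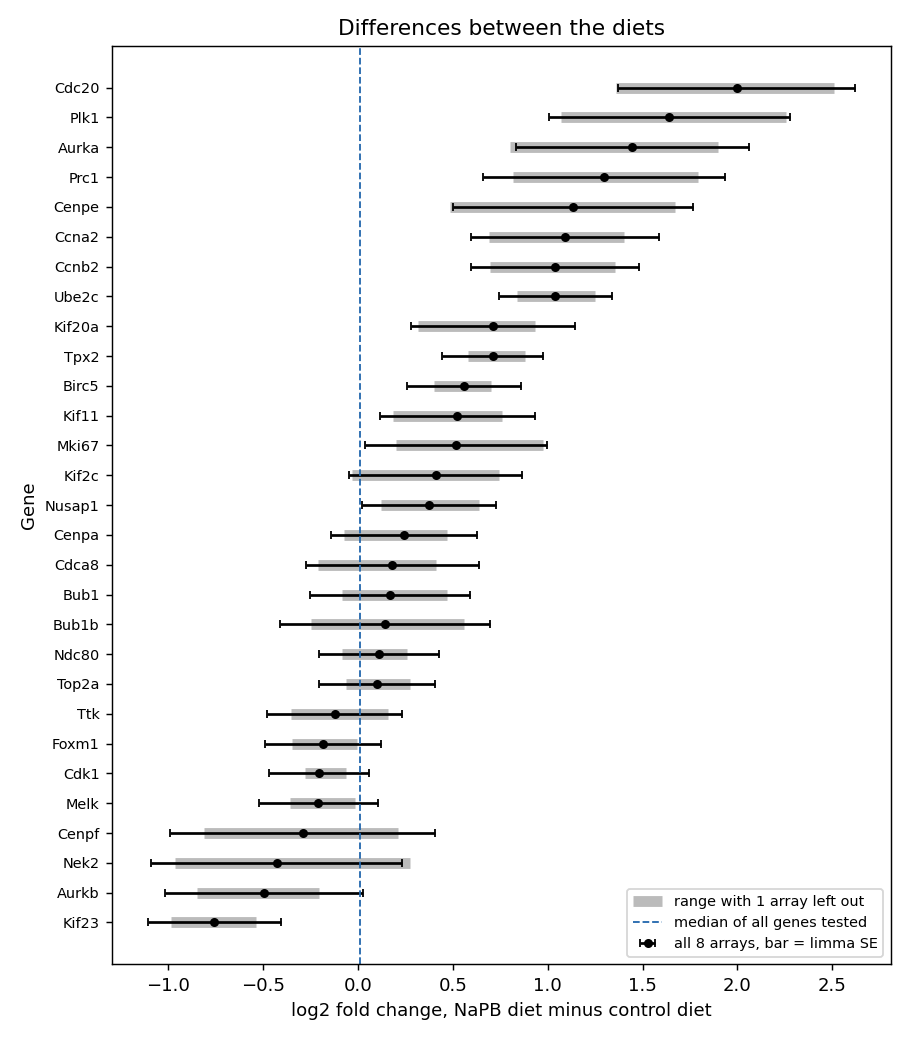
Log2 fold change (NaPB over control) of each of the 29 measured mitosis genes, sorted by size; points with bars are the values and limma standard errors over 4 arrays per diet, grey bands the range with 1 array left out, and the dashed line the median of all genes tested. Cdc20 lies highest at 2.00, and no member passed an adjusted p of 0.05; the points of Melk, Kif23, Top2a, Aurka and Aurkb rest on 4 or more values at the floor and have no reliable place in the order.

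To show what the promoters of these genes share, the 4 members with the smallest p that have an entry in the RefSeq promoter table (GRCm38.p6) are printed, 5′ to 3′ on the gene's strand, from 250 bases before to 50 after the start site. Capitals mark either the cell cycle homology region, CHR, searched as TTTGAA or TTCGAA, or the CCAAT box bound by NF-Y, both on either strand. The windows are chr2:164769679-164769978 (plus strand) for Ube2c, chr4:118437294-118437593 (minus strand) for Cdc20, chr7:122159185-122159484 (plus strand) for Plk1 and chr2:172370521-172370820 (minus strand) for Aurka.
Ube2c: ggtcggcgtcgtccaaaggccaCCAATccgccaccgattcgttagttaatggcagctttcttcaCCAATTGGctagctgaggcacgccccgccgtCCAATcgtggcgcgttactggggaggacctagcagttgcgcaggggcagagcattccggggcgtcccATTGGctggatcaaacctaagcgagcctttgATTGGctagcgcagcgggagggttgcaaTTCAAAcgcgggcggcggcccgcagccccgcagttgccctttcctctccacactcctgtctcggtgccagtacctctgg
Cdc20: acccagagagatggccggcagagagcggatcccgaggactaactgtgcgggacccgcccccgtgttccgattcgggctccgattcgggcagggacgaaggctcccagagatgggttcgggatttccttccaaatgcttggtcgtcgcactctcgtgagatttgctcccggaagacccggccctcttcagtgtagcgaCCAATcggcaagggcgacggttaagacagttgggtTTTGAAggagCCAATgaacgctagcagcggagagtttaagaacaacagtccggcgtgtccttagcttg
Plk1: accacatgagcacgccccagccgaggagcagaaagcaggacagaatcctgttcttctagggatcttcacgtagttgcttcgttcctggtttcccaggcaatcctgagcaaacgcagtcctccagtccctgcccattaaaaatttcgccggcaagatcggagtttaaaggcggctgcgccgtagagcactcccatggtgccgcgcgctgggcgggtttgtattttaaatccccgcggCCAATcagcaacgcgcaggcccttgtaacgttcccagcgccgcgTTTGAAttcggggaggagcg
Aurka: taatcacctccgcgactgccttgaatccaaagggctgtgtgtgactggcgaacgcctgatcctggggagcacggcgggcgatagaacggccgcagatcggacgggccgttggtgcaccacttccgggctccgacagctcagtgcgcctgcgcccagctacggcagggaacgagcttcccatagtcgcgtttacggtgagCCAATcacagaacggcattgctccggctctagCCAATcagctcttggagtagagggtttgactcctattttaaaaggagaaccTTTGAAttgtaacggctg
Each of these 4 windows held 1 CHR match. Ube2c had 6 CCAAT matches, a pair of them overlapping on opposite strands, Cdc20 and Aurka had 2 each and Plk1 had 1. The table held 26 windows of 25 members, and none for Foxm1, Kif20a, Aurkb, Ccna2 and Tpx2. A CHR match was present in 20 of the 26 windows (76.9%), against 19.2% of 32851 windows of all genes, and a CCAAT match in 21 (80.8%), against 37.4%. Both were present in 18 (69.2%), against 7.52% of all windows. A CHR match was not found in these windows of Ccnb1, Cenpe, Nek2, Melk, Nusap1 and Birc5. A match is a description of the letters, not evidence of binding in these livers.

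The genes of mitotic exit had the smallest p-values of the members. Ube2c is the ubiquitin-conjugating enzyme that works with the anaphase-promoting complex. Its intensity, on the scaled linear unit deposited by the authors, was 0.566, 0.546, 0.578 and 0.575 in control replicates 1 to 4 and 1.77, 1.26, 1.10 and 0.75 in NaPB replicates 1 to 4. The controls sat close together and every NaPB value was above them, with NaPB replicate 4 nearest. This amounted to 1.04 ± 0.30 log2 units (SE, 4 arrays per diet), or 2.06-fold, at a limma adjusted p of 0.18. Without NaPB replicate 4 it was 1.25 and Ube2c was the 1 member called (limma adjusted p 0.0456), in a fit that called 211 of all genes higher (1.02%).

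Cdc20 is the activator that directs the anaphase-promoting complex to its targets and is held back by the spindle checkpoint. Its intensity was 0.164, 0.164, 0.204 and 0.175 in the controls and 2.62, 0.242, 1.04 and 0.367 in NaPB replicates 1 to 4. The diets did not overlap, but NaPB replicate 2 lay close to the controls and NaPB replicate 1 far above every other array. Cdc20 differed by 2.00 ± 0.62 log2 units (SE), or 3.99-fold, at a limma adjusted p of 0.232. Leaving out NaPB replicate 1 gave 1.36, and leaving out replicate 2 gave 2.51.

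**Figure D2:**
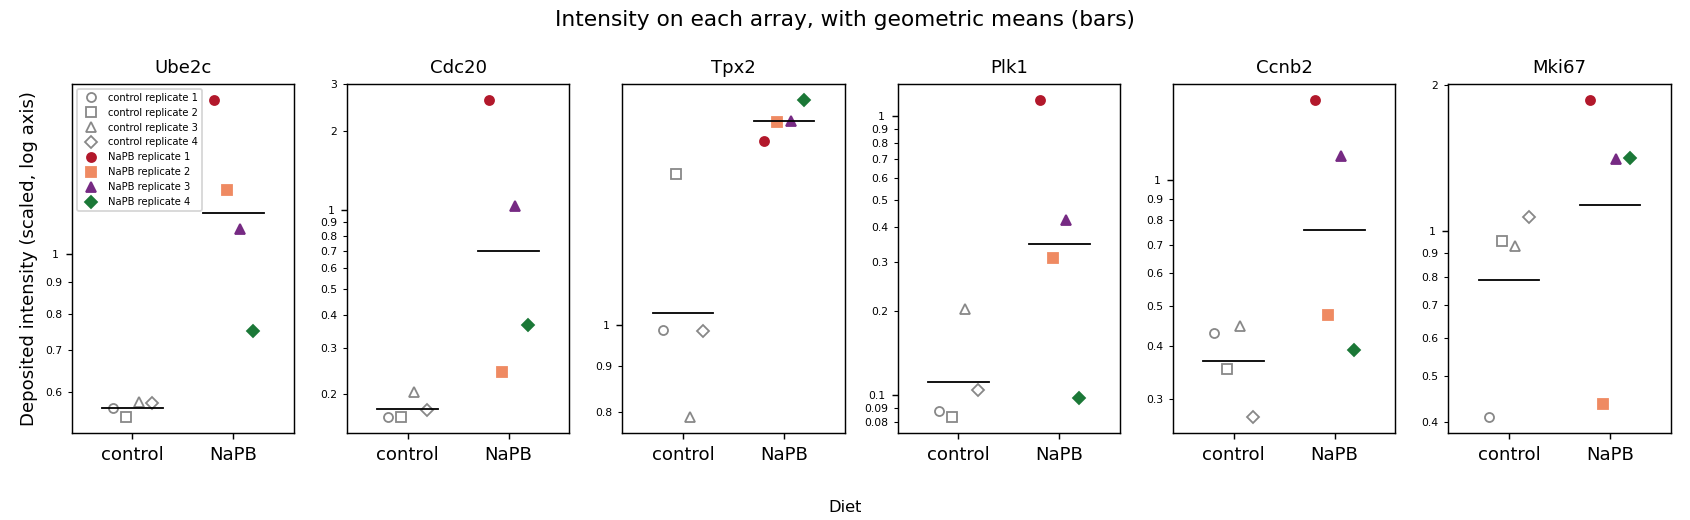
Deposited intensity (scaled, log axis, with its own range for each gene) of 6 mitosis genes on every array, by diet, with bars at the geometric means. For Cdc20, Plk1 and Ccnb2, NaPB replicates 1 and 3 are the highest arrays, whereas the 4 NaPB values of Tpx2 lie between 1.598 and 1.78.

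Among the cyclins, Ccnb2 (cyclin B2, a partner of Cdk1 at mitotic entry) had intensities of 0.430, 0.353, 0.449 and 0.271 in the controls and 1.55, 0.475, 1.14 and 0.393 in NaPB replicates 1 to 4. NaPB replicates 1 and 3 were far above the controls, and NaPB replicate 4 fell within their range. Ccnb2 differed by 1.04 ± 0.44 log2 units (SE, limma adjusted p 0.451). Ccna2 (cyclin A2, needed from DNA replication to early mitosis) had 0.0714, 0.125, 0.0553 and 0.184 in the controls and 0.479, 0.109, 0.199 and 0.179 on NaPB. NaPB replicates 1 and 3 were above the highest control, and 2 controls were at the floor. For Ccna2 the log2 fold change was 1.09 ± 0.50 (SE, limma adjusted p 0.50).

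Cdk1, the kinase that these cyclins activate, had intensities of 0.591, 0.701, 0.537 and 0.517 in the controls and 0.593, 0.377, 0.504 and 0.583 on NaPB. The diets overlapped, and NaPB replicate 2 was the lowest array. Cdk1 differed by -0.20 ± 0.26 log2 units (SE, limma adjusted p 0.867), and by -0.28 to -0.06 when 1 array was left out. Whether Cdk1 differed from its cyclins in its response was not tested.

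Of the mitotic kinases 2 of 6, Plk1 and Aurka, lay above 0. Plk1, polo-like kinase, which acts at entry, in the spindle and in cytokinesis, had intensities of 0.0877, 0.0831, 0.204 and 0.104 in the controls and 1.15, 0.31, 0.424 and 0.0972 in NaPB replicates 1 to 4. NaPB replicates 1 to 3 were above all controls and NaPB replicate 4 was among them. Plk1 differed by 1.64 ± 0.63 log2 units (SE, limma adjusted p 0.38), by 1.07 when NaPB replicate 1 was left out and by 2.26 when replicate 4 was.

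Aurka, Aurora A, the kinase of the spindle poles, had 0.0651, 0.0447, 0.0463 and 0.0366 in the controls, all of them at the floor. On NaPB it had 0.488, 0.0504, 0.166 and 0.0663, with NaPB replicate 2 at the floor as well. NaPB replicates 1 and 3 stood clear of the controls and the others did not. The fit, which takes floor values as measured, gave 1.45 ± 0.61 log2 units (SE, limma adjusted p 0.448), and 0.80 without NaPB replicate 1; no fold is given.

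Of the other kinases none had an unadjusted p below 0.05. Aurkb, Aurora B, the catalytic subunit of the chromosomal passenger complex, had intensities of 0.143, 0.149, 0.0521 and 0.0392 in the controls and 0.119, 0.0474, 0.0343 and 0.0575 on NaPB. The diets overlapped, and 4 of the 8 values, 2 in each diet, were at the floor. Nek2, a centrosome kinase, had -0.43 ± 0.66 (SE), with a single high control value of 1.46 on control replicate 3, and without that array it was 0.28. Ttk, the checkpoint kinase Mps1, had -0.12 ± 0.36 (SE). Melk had 0.0738, 0.0461, 0.0489 and 0.0362 in the controls and 0.0498, 0.0581, 0.0349 and 0.0336 on NaPB. All 8 values were at the floor, so no direction can be read.

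Of the kinetochore and checkpoint genes 5 of 6 lay above 0, and none had an unadjusted p below 0.05. Cenpe, a kinetochore motor, differed by 1.13 ± 0.63 log2 units (SE, limma adjusted p 0.635), and its intensity was 0.0945, 0.098, 0.0514 and 0.0963 in the controls and 0.692, 0.0592, 0.228 and 0.114 on NaPB. NaPB replicate 1 was the highest array, and 3 values were at the floor, those of control replicates 1 and 3 and NaPB replicate 2. Without NaPB replicate 1 the log2 fold change was 0.49. For Cenpa, the histone H3 variant of centromeres, it was 0.24 ± 0.39 (SE). The checkpoint genes Bub1 and Bub1b (BubR1) had 0.17 ± 0.42 and 0.15 ± 0.55 (SE), each with 3 values at the floor. Ndc80, part of the microtubule attachment of the kinetochore, had 0.11 ± 0.32 (SE), and Cenpf had -0.29 ± 0.70 (SE), with 2 values at the floor. Apart from Cenpe, each of these 5 changed sign when 1 array or another was left out.

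Birc5 (survivin) and Cdca8 (borealin) are subunits of the chromosomal passenger complex, which corrects wrong attachments of chromosomes. Through their brightest features they had log2 fold changes of 0.56 ± 0.30 (SE, limma adjusted p 0.611) and 0.18 ± 0.45 (SE, limma adjusted p 0.936). Among the spindle motors, Kif20a, a motor of cytokinesis, had 0.71 ± 0.43 (SE), Kif11 (Eg5), which pushes spindle poles apart, had 0.52 ± 0.41 (SE) and Kif2c, which takes microtubules apart at kinetochores, had 0.41 ± 0.46 (SE). The intensity of Kif23, a motor of the midbody, was 0.0813, 0.101, 0.0507 and 0.0397 in the controls and 0.042, 0.0506, 0.0282 and 0.0339 on NaPB. Of these 8 values 7 were at the floor, so no difference or direction is given, although Kif23 was among the 8 members with the smallest p (limma adjusted p 0.517).

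All 3 spindle-associated proteins lay above 0. Tpx2, which activates Aurora A and nucleates spindle microtubules, had intensities of 0.987, 1.47, 0.789 and 0.983 in the controls and 1.598, 1.68, 1.69 and 1.78 on NaPB. The NaPB arrays lay close together above every control, with control replicate 2 nearest to them. Tpx2 differed by 0.71 ± 0.27 log2 units, or 1.64-fold (SE, limma adjusted p 0.365). Prc1, which bundles microtubules of the central spindle, had 1.30 ± 0.64 (SE, limma adjusted p 0.56), and Nusap1 had 0.37 ± 0.35 (SE).

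Mki67, the gene of the proliferation marker Ki-67, had intensities of 0.410, 0.949, 0.929 and 1.07 in the controls and 1.87, 0.438, 1.41 and 1.41 on NaPB. On 3 NaPB arrays it was above all controls, and NaPB replicate 2 was close to the lowest control, control replicate 1. Mki67 differed by 0.52 ± 0.48 log2 units (SE, limma adjusted p 0.801), between 0.20 without control replicate 1 and 0.97 without NaPB replicate 2. Top2a, the topoisomerase that untangles chromosomes, had 0.082, 0.0554, 0.0569 and 0.0407 in the controls and 0.0764, 0.0532, 0.0747 and 0.0459 on NaPB. Of these 6 were at the floor, all controls included, and no direction can be read. Foxm1, the transcription factor that drives many of these genes, had -0.18 ± 0.30 (SE) through its brightest feature.

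**Figure D3:**
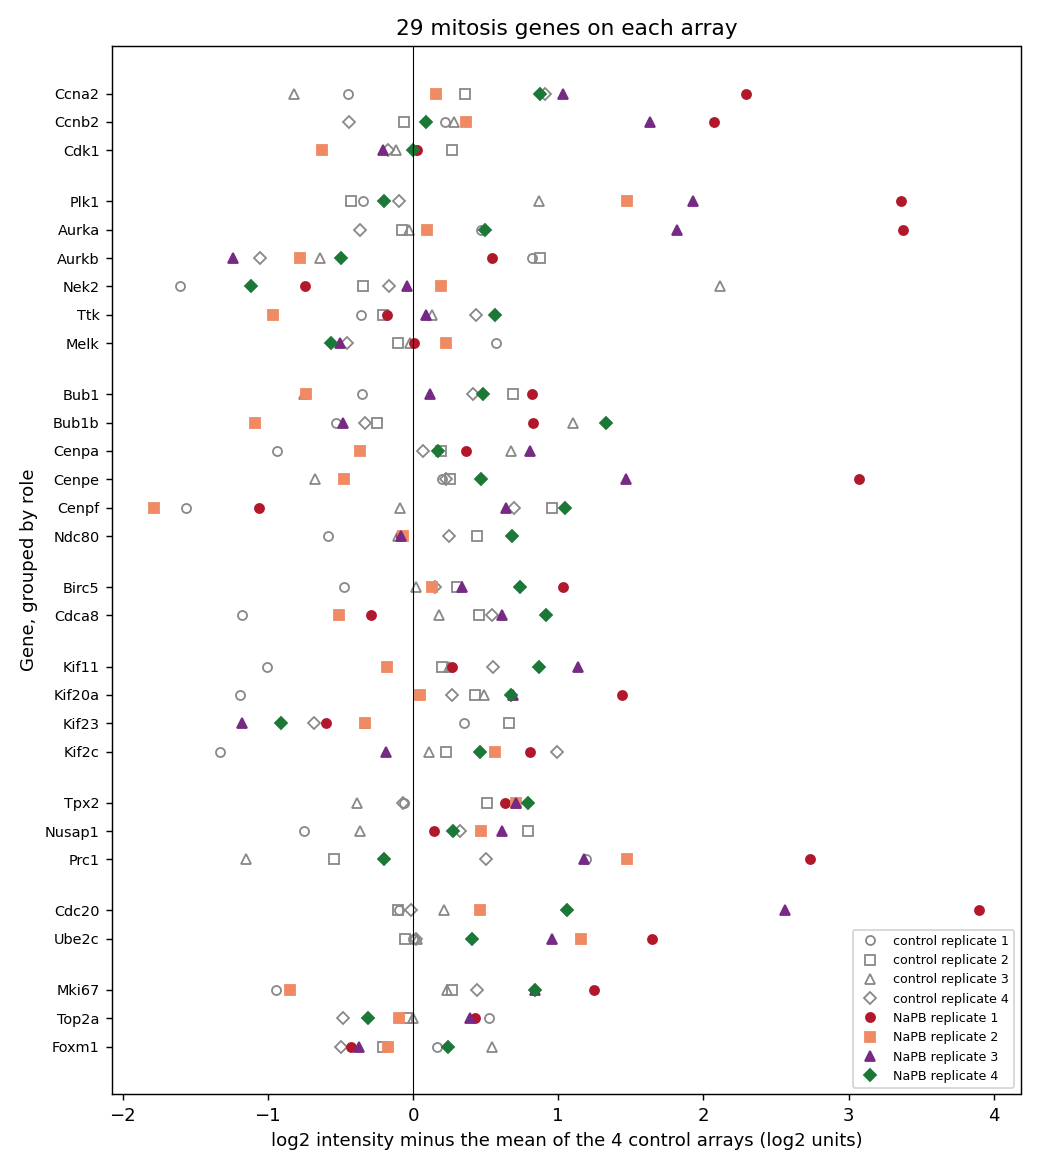
Log2 intensity of the 29 measured mitosis genes on each array minus the mean of the gene's 4 control arrays, in log2 units, with genes grouped by role. Each point is 1 array, open for control and filled for NaPB. NaPB replicate 1 is the highest array for 12 of the 29, among them Cdc20, Plk1, Aurka and Cenpe; values at the floor have no order among themselves.

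The values depended on which array was read. The mean of the members, set against the control mean of each gene, was 0.95 log2 units on NaPB replicate 1, -0.05 on replicate 2, 0.53 on replicate 3 and 0.33 on replicate 4, and between -0.32 and 0.19 on the control arrays. Over all genes this mean stayed between -0.11 and 0.08. NaPB replicate 1 held the highest of the 8 values for 12 members (41.4%), against 11.7% of all genes, and NaPB replicate 2 held it for none. Control replicate 1 held the lowest value for 10 members (34.5%), against 19.1% of all genes. On that array 13 of 29 members were at the floor, against 2 to 9 on the others, and 23.8% of all genes were there, against 9.19% to 15.9%.

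A shared order of the arrays was seen in some members. In 7 of 29 (24.1%), Ccna2, Ccnb2, Plk1, Aurka, Cenpe, Kif20a and Cdc20, NaPB replicate 1 was highest and replicate 3 next, both above all controls and above the other two NaPB arrays. The same order held for 10 of 101 other mitotic genes, taken up further below (9.90%), and for 2.12% of all genes. It was chosen after the values were seen and is a description of these arrays. For Kif20a, NaPB replicates 3 and 4 were almost level, at 0.586 and 0.581.

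**Figure D4:**
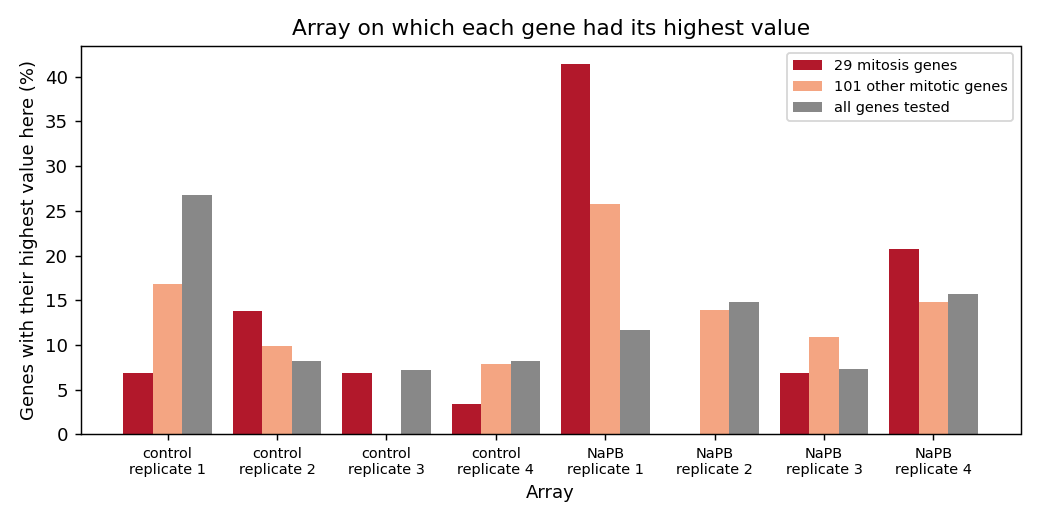
Share of genes, in percent, whose highest value of the 8 lies on each array, for the 29 measured mitosis genes, the 101 other mitotic genes and all genes tested. NaPB replicate 1 holds it for 41.4% of the members and 11.7% of all genes, and control replicate 1 for 6.90% and 26.8%.

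Of the members, 9 had more than 1 named feature, and for 7 of these the features shared the sign of the log2 fold change. Foxm1, Birc5, Cdca8 and Mki67 are given in full because another of their features lay far from the brightest one, and they were singled out after their values were seen. Brightest means the highest mean log2 intensity over all 8 arrays, so a difference between the diets enters into which feature is the brightest. The dimmer feature of Foxm1 had intensities of 0.864, 0.488, 0.579 and 0.470 in the controls and 0.217, 0.104, 0.154 and 0.195 on NaPB. The diets did not overlap, with all NaPB values below. This feature differed by -1.85 ± 0.33 log2 units (SE), 3.61-fold lower on NaPB, and it passed when all features were tested singly (limma adjusted p 0.0284 over 31465 features). In that test 106 features were called higher (0.337%) and 161 lower (0.512%). The brightest feature of Foxm1 had 0.604, 0.465, 0.782 and 0.381 in the controls and 0.400, 0.477, 0.416 and 0.636 on NaPB, which overlapped. In the controls the feature called dimmer here was the brighter one, with a geometric mean of 0.582 against 0.538. Which part of the transcript each feature reads is not given in the sources used here.

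Dimmer features of Birc5, Cdca8 and Mki67 lay further above 0 than the brightest ones. A dimmer feature of Birc5 had 0.07, 0.263, 0.261 and 0.263 in the controls and 3.39, 0.472, 1.53 and 0.734 on NaPB, without overlap and with control replicate 1 at the floor. Its log2 fold change was 2.62 ± 0.63 (SE, limma adjusted p 0.102 over features), against 0.56 and 0.36 for the other Birc5 features. On NaPB its geometric mean was 1.16, above the 0.578 of the feature that stood for the gene. The dimmer feature of Cdca8 had 0.184, 0.261, 0.207 and 0.189 in the controls and 0.837, 0.432, 0.558 and 0.417 on NaPB, also without overlap. Its log2 fold change was 1.37 ± 0.30 (SE, limma adjusted p 0.0732 over features), against 0.18 for the brightest. The dimmer feature of Mki67 had 0.0779, 0.0887, 0.216 and 0.267 in the controls and 0.936, 0.192, 0.635 and 0.159 on NaPB. NaPB replicates 1 and 3 were above all controls and the other two among them, with a log2 fold change of 1.38 ± 0.62 (SE), against 0.52 for the brightest. Of the members whose diets did not overlap, Ube2c had 1.55 ± 0.56 (SE) through its dimmer feature and Tpx2 had 0.22 ± 0.58 (SE), against 1.04 and 0.71 through the brightest. In both dimmer features the diets did overlap. For Ube2c, 2 controls of that feature were at the floor, and for Tpx2, 1 value in each diet. The features of Cdk1 ran from -0.55 to 0.44 and the 10 features of Bub1 from -0.84 to 0.57. Every feature of Bub1 had a value at the floor, as did the features of Cdk1 other than the brightest.

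**Figure D5:**
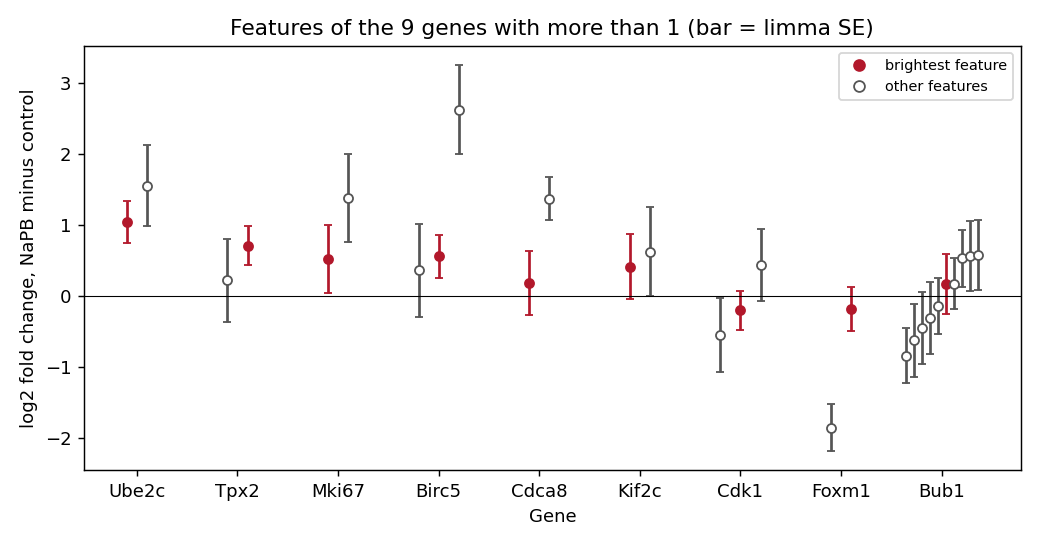
Log2 fold change (NaPB over control) of every named feature of the members that have more than 1, with limma standard errors as bars and the brightest feature marked. The features of Foxm1 lie at -0.18 and -1.85, and those of Birc5 at 0.36, 0.56 and 2.62.

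The wider machinery of mitosis was read from 7 lists of 102 genes that are not members, of which 101 were measured. Of these, 0 were called in either direction, and at an unadjusted p below 0.05, 11 were higher and 1 was lower, Cenpl at -0.82, beside 4.34% and 5.77% of all genes. The log2 fold change was above 0 for 69 of the 101 (68.3%, against 51.2% of all genes), with a median of 0.24. For Cks1b and Ncapd3 (1.98% of the 101), all NaPB values lay above all controls, a share below the 2.72% of all genes. Cks1b, a small subunit that binds cyclin-dependent kinases, had the smallest p of the entry regulators, and its intensity was 0.339, 0.291, 0.464 and 0.417 in the controls and 1.14, 0.998, 1.32 and 0.556 on NaPB. NaPB replicate 4 was again the nearest to the controls. Its log2 fold change was 1.36 ± 0.33 (SE, limma adjusted p 0.0946). Without NaPB replicate 4, 3 of the 101 were called, Cks1b, Spc24 and Mad1l1, with limma adjusted p of 0.0225, 0.0421 and 0.0288, in the fit that called 1.02% of all genes higher.

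In the list of other kinetochore and checkpoint genes, 20 of 29 measured genes lay above 0, and Spc24, a partner of Ndc80, had the smallest p, with 1.17 ± 0.41 (SE). Of the spindle, centriole and cytokinesis genes 16 of 24 lay above 0, and Ect2, which acts in forming the contractile ring, had 1.43 ± 0.53 (SE), with 3 controls at the floor. Of the condensin and separase genes 7 of 10 lay above 0, and Ncapd3, a condensin subunit, had 0.90 ± 0.27 (SE, limma adjusted p 0.216). Of the MuvB and E2F complex genes 5 of 9 lay above 0, and Lin9, a MuvB subunit, had 1.46 ± 0.48 (SE), with 2 controls at the floor. Through its other feature Lin9 had 0.06. Of the anaphase-promoting complex genes 11 of 14 lay above 0, led by Cdc16 at 0.55. Of the Cdk inhibitors, which hold the cycle back, 3 of 5 lay above 0, and Cdkn2c had the smallest p (limma adjusted p 0.557), with 5 values at the floor, all controls included, so no difference is given.

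Markers of liver cell types were read on the same arrays. Hepatocyte markers were bright on every array, with Alb between 109 and 611, and none of the 7 measured was at the floor. Their summed level was 857 to 1542 in the controls and 490 to 879 on NaPB, with 4 of 7 below 0. Alb had a log2 fold change of -1.24 ± 0.36 and Apoa1 one of -1.001 ± 0.28 (SE, limma adjusted p 0.19 and 0.167), both without overlap of the diets. Asgr1, Hnf4a and Ttr lay above 0, at 0.45, 0.29 and 0.06. The summed level rests mostly on Alb, Apoa1 and Ttr and does not stand for all hepatocyte markers. The summed level of the 7 Kupffer cell and macrophage markers was 29.4 to 31.8 in the controls and 21.4 to 24.99 on NaPB, and 6 of the 7 had log2 fold changes below 0. Of the 8 lymphocyte markers 4 were above 0, with sums of 61.4 to 164 and 89.9 to 105. The lymphocyte sums were mostly Cd4, at 35.9 to 117 in the controls and 53.0 to 65.9 on NaPB, and 5 of its 11 features lay above 0. Sums of the 4 measured neutrophil markers were 29.04 to 123 in the controls and 72.9 to 187 on NaPB. S100a8 was the 1 marker called, at 6.43 ± 1.04 (SE, limma adjusted p 0.0176). Its intensity on NaPB was uneven, at 46.3, 126, 71.0 and 2.02 in replicates 1 to 4. S100a9 and Elane lay above 0, at 0.84 and 0.45, and Mpo below, at -0.84 (limma adjusted p 0.677, 0.814 and 0.763). The neutrophil sums were mostly Elane in the controls, and Elane and S100a8 on NaPB. They do not stand for all neutrophil markers. The 6 erythroid markers had sums of 47.5 to 81.1 and 36.7 to 74.4, with 4 of 6 below 0, and these sums were mostly Hba-a1 and Hbb-bt (-0.20 and 0.12). They do not stand for the other erythroid markers. Alas2, Slc4a1 and Epor lay below 0, at -2.11, -1.03 and -0.26 (limma adjusted p 0.186, 0.247 and 0.85). Klf1 lay above, at 0.70 (limma adjusted p 0.693). The 5 cholangiocyte markers, 3 of them above 0, had a sum of 1.39 on control replicate 1, against 3.34 to 4.05 on the other controls and 2.66 to 4.02 on NaPB. Control replicate 1 was also the array with the lowest mean of the mitosis genes. Sums of the 6 endothelial markers (3 above 0) were 92.7 to 191 in the controls and 117 to 193 on NaPB, and those of the 6 stellate cell markers (4 above 0) 26.3 to 44.4 and 18.9 to 33.7. The endothelial sums were mostly Kdr, at 80.3 to 170 in the controls and 106 to 178 on NaPB. Of the 11 features of Kdr, 1 lay above 0, the brightest one used here, and the lowest had -0.54. The stellate sums were mostly Dcn, with a log2 fold change of -0.52. The part of these cells in the values of the mitosis genes was not tested.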

How the data were processed

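Liver RNA was labelled with Cy3 and hybridised to one-colour Agilent arrays, per the labels, and scans were quantified with Agilent Feature Extraction 10.7, per the submitters' processing notes. The deposited values are intensities on a linear scale that the authors had scaled: the 75th percentile of each array was between 0.952 and 0.974. How they were scaled, and any background correction or spot flags, is not given in the sources used here. Of 62976 features, 31465 carried 1 gene symbol, 0 several and 31511 none; 3282 symbols were updated through RefSeq tables (GRCm38.p6, names only). This gave 20738 genes, 6171 with more than 1 feature, and the brightest feature, by mean log2 intensity, stood for its gene. The values of NaPB replicate 2 were 3443 distinct numbers, against at least 62756 elsewhere.

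Log2 intensity, with no pseudocount, further scaling or filter, entered a two-sided limma fit (version 3.58.1, R 4.3.3) with diet as the only term. P-values were adjusted over all genes and called below 0.05. Values at most 2 times an array's lowest were taken to be at the floor. The number of arrays, 4 per diet, limits the precision. The fit was tested on simulated data with independent noise, no floor and differences larger than most seen in the members. That test does not show how many differences of the size seen here the fit would miss. Tables used pandas 2.3.3 and numpy 2.4.6 under Python 3.11.15, and figures matplotlib 3.10.9.

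The members, the lists, the alternatives and the naming rule were chosen with earlier results of these data known. All members are named. Values on every array are given for the 8 members with the smallest p, for Mki67 and Cdk1 and for members discussed for values at the floor; of each list the gene with the smallest p is named; promoters are printed for the 4 members with the smallest p that have an entry. Alternatives were other scalings, filters, pseudocounts, feature rules, variance models, array weights, thresholds, the replicate number as a block, and leaving out arrays.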

Additional observations from a re-analysis of the deposited data

Results flagged for a closer look

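The groups were the 4 arrays of a diet for each of 36 named genes, the members and the gene with the smallest p of each wider list. In 4 of 72 groups, all 4 of members, the highest or lowest value stood apart from the other 3. The gap divided by the range of the group, both in log2 intensity, was then above 0.829, and chance gives about 1 in 20 such groups. The values printed below are linear intensities. Cenpe was lowest on control replicate 3, at 0.0514 against 0.0945 to 0.0980 on the other controls (gap over range 0.943), with 2 values of the group at the floor. Kif20a (0.869) and Mki67 (0.854) were both lowest on control replicate 1, at 0.160 against 0.440 to 0.513 for Kif20a and at 0.410 against 0.929 to 1.07 for Mki67. Ndc80 was highest on NaPB replicate 4, at 2.71 against 1.59 to 1.61 (0.981).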

How the results depend on the processing

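The count of all genes called, 209, was 328 after quantile normalization, 111 after shifting arrays to the same median, 812 with array weights, 364 at a threshold of 0.1, 58 at 0.01 and 570 without control replicate 1 and NaPB replicate 4, and 88 to 365 when 1 array was left out. The replicate block gave 135 (58 higher, 77 lower). Same-numbered arrays correlated in their deviations at 0.23, -0.29, 0.04 and 0.23, and not every array correlated best with its own number. With deviations that sum to 0 over the 4 arrays of a diet, these correlations cannot settle whether the numbers pair the samples. With the block 0 members and 0 of the other mitotic genes were called. Of the members, 1 was called with array weights (Ube2c), 1 with features tested singly (Foxm1, lower), 1 without control replicate 1 and NaPB replicate 4 (Ube2c) and 0 to 1 when 1 array was left out. Of the other mitotic genes, 1 was called after the median filter and 1 at a threshold of 0.1 (Cks1b each time), 5 with array weights, 3 without that pair of arrays, and 0 to 3 when 1 array was left out. The member median stayed above 0 under every alternative run for it, from 0.12 to 0.49 when 1 array was left out, 0.18 with array weights, 0.07 with a pseudocount of 1 and 0.10 without the pair. Signs turned under array weights for Melk (0.046), Bub1b (-0.082), Ndc80 (-0.17) and Cdca8 (-0.30); under quantile normalization for Melk (0.092) and Top2a (-0.15); under the mean of features for Bub1 (-0.034); and without the pair for Melk (0.10), Bub1 (-0.050), Bub1b (-0.42), Cenpa (-0.045), Ndc80 (-0.27), Cdca8 (-0.45) and Kif2c (-0.049). Leaving out 1 array, or that pair, gave -0.96 to 0.28 for Nek2, -0.47 to 0.16 for Ttk, -0.36 to 0.10 for Melk, -0.081 to 0.47 for Bub1, -0.42 to 0.56 for Bub1b, -0.069 to 0.47 for Cenpa, -1.26 to 0.21 for Cenpf, -0.27 to 0.26 for Ndc80, -0.45 to 0.41 for Cdca8, -0.049 to 0.74 for Kif2c and -0.060 to 0.41 for Top2a. The cause was not tested; Melk was at the floor on all 8 arrays, so its signs have no meaning. Of 681 values of single genes, 638 kept direction and side of the threshold. The mean of features moved Foxm1 to -1.02 and Birc5 to 1.18. Of the members, 15 had a value at the floor on some array, so their fold changes are limited by signal over background.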
